A study of Mus musculus with 18 samples.

Results

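The genes described here encode 5 integrin subunits and 4 further adhesion molecules of lymphocytes: Itga4, Itgb7, Itgb1, Itgal, Itgb2, Icam1, Icam2, Pecam1 and Cd44. They were taken as every probe set of the array whose single gene symbol in the platform annotation was one of these 9 names. This gave 22 of 45101 probe sets, and 9 of the 18193 genes named on the array. RNA was measured on 18 Affymetrix Mouse Genome 430 2.0 arrays in splenic B lymphocytes of C57BL/6J mice, labelled CD23+ for an IgE receptor found on follicular B cells. There were 5 arrays of anti-IgD with PF-303, 4 of anti-IgD with vehicle, 5 of PBS with PF-303 and 4 of PBS with vehicle. PF-303 inhibits BTK, a kinase downstream of the B-cell receptor, and was injected 2 h before anti-IgD or PBS. Anti-IgD crosslinks the receptor in the animal, and the B cells were taken 2 h after it. Samples are numbered within a group, but the labels do not tie each to its own animal, so the tests rest on the spread between samples, which may be in part technical.

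Integrins are pairs of an α and a β chain that hold lymphocytes to vessel walls, stroma and other cells. Itga4 encodes the α4 chain, which pairs with the products of Itgb1 and Itgb7 and binds VCAM-1, fibronectin and, with the β7 chain, the gut addressin MAdCAM-1. Itgal and Itgb2 encode the αL and β2 chains of LFA-1, whose ligands include the products of Icam1 and Icam2. Antigen-receptor signals switch such integrins to a high-affinity shape through Rap1, talin and kindlin. In the spleen these integrins are known for holding marginal zone B cells in place and for contacts of B cells with stromal and follicular dendritic cells.

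The deposited value of a probe set was its MAS5 signal, an intensity on a linear scale with 1 trimmed mean for all arrays. A signal is therefore a level relative to the rest of its array, and signals of different genes are not set against each other. All 9 genes passed the filter on low signals, through 17 of the 22 probe sets, and 11104 genes were tested with limma on log2(signal + 16). Differences below are log2 differences ± SE from that fit, with p adjusted by Benjamini-Hochberg over all 11104 genes, with an adjusted p under 0.05 as the threshold for a call. The CD23 gene Fcer2a had signals of 1543 to 2979. With vehicle it was called lower for anti-IgD against PBS (-0.51 ± 0.10, limma, adjusted p = 2.0e-04), with means of 1754 and 2512. After anti-IgD it was called higher with PF-303 than with vehicle (0.31 ± 0.10, adjusted p = 0.018). Of 9 T cell markers, 5 passed the filter. Over all arrays Cd3e lay between 1.24 and 12.5, Cd4 between 0.905 and 3.55, Cd8a between 20.5 and 45.6 and Lat between 3.56 and 50.1, and Cd28 was called higher for anti-IgD against PBS with PF-303 (log2 difference 0.47 ± 0.17, adjusted p = 0.035). The sum of all 9 was 82.8 to 179 in anti-IgD with PF-303, 81.3 to 143 in anti-IgD with vehicle, 67.4 to 170 in PBS with PF-303 and 90.9 to 168 in PBS with vehicle. Hybridization controls exceeded 2 times their median in 6 arrays: 2 from anti-IgD with PF-303 (replicates 1 and 3), 2 from PBS with PF-303 (3 and 4) and 2 from PBS with vehicle (3 and 4). Fits without these 6 arrays thus kept only replicates 1 and 2 of PBS with vehicle, but all 4 arrays of anti-IgD with vehicle. The part of the smaller groups in calls that changed there was not tested.

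In vehicle-treated mice, anti-IgD lowered 5 of the 9 genes and raised 2, while 30.6% of all genes tested were called lower and 17.4% higher. Itga4, Pecam1, Itgb7, Icam2 and Itgal fell, Icam1 and Itgb1 rose, and Itgb2 and Cd44 did not pass the test. The median log2 difference of the 9 genes was that of Itgal, -0.32, against -0.13 over all genes tested. The signals of both groups did not overlap for 7 of the 9 genes, as for 42.3% of all genes. After each array had been shifted to the same median, the median over all genes was -0.02 in place of -0.13. Itgal then lost its call and Itgb2 was called higher, which gave 4 falls and 3 rises. With this shift 2551 of all 11104 genes were called lower and 2390 higher, in place of 3394 and 1928. Without the 6 arrays of high control signal, 5 of the 9 genes were called lower and 3 higher, Itgb2 among these. Over all 11104 genes, 3259 were then called lower and 1833 higher. In bulk RNA, fewer cells with a transcript and less of it per cell cannot be told apart.

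**Figure D1:**
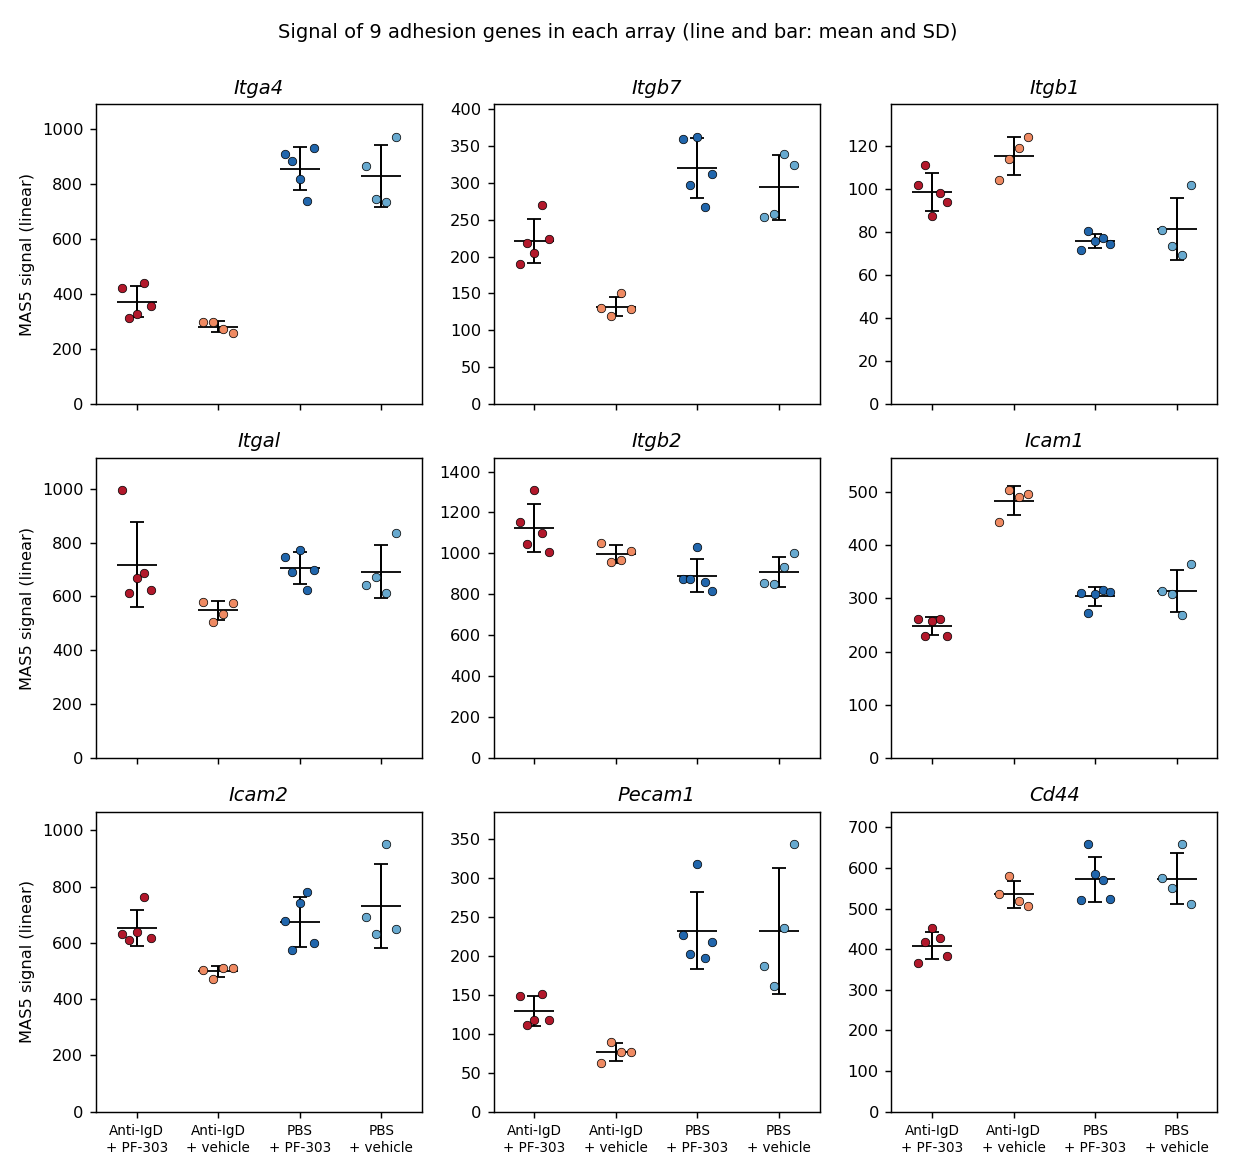
MAS5 signal on a linear axis of the 9 genes in each of the 18 arrays, with the mean and SD of each group. Itga4, Itgb7 and Pecam1 are low in both anti-IgD groups, and Icam1 is high in anti-IgD with vehicle, at 444 to 503.

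Transcripts of the α4 chain and its β7 partner fell together. Itga4 had signals of 299, 296, 271 and 256 in the 4 arrays of anti-IgD with vehicle, against 863, 744, 734 and 971 in PBS with vehicle. Every stimulated array lay far below every PBS array. The log2 difference of Itga4 was -1.50 ± 0.11 (limma, adjusted p = 2.5e-10). Itgb7 had signals of 130, 119, 150 and 128 in anti-IgD with vehicle, against 254, 258, 339 and 324 in PBS with vehicle. Again no stimulated array reached the lowest PBS array, and the log2 difference was -1.06 ± 0.12 (adjusted p = 1.2e-07). Itgb1, which encodes the β chain of the other α4 pair, moved the other way, with signals of 104, 114, 119 and 124 in anti-IgD with vehicle and of 81.2, 73.7, 69.1 and 102 in PBS with vehicle. Its lowest stimulated array lay just above its highest PBS array, and the log2 difference was 0.44 ± 0.10 (adjusted p = 0.0013).

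The RefSeq promoter table of build GRCm38.p6 held 5 of the 9 genes (Itga4, Itgb7, Itgb1, Icam1 and Cd44). The 250 bases before the annotated start of Itga4 and Itgb7 are shown because these partners fell together, and those of Icam1 because its change under anti-IgD ran the other way and differed most with PF-303. Capitals mark matches to the motifs searched on both strands: the kB letters GGANNNTCC, the AP-1 letters TGANTCA, the KLF letters CCACNCCC, the FOXO letters GTAAACA, the EGR letters GCGGGNGCG and the TATA letters TATAAA.
Itga4, chr2:79255176-79255425, plus strand: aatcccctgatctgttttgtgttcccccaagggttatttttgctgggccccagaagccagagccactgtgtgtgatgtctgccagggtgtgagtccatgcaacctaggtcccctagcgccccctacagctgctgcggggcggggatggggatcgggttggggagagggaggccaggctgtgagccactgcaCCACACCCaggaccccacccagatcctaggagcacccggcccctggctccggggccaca
Itgb7, chr15:102231936-102232185, minus strand: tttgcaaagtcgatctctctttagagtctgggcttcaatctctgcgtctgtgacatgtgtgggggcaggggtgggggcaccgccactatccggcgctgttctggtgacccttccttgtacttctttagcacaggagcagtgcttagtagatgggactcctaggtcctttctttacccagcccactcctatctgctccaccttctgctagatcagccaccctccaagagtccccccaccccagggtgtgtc
Icam1, chr9:21015690-21015939, plus strand: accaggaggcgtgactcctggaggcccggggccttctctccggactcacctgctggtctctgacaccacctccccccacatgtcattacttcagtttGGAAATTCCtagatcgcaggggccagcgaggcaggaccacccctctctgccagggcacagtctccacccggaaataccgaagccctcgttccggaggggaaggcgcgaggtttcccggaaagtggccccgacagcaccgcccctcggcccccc
In these windows Icam1 held 1 kB match, GGAAATTCC, from 153 to 145 bases before the start, and Itga4 held 1 KLF match, CCACACCC, from 59 to 52 bases before it. Neither overlapped another motif, and the windows of Itgb7, Itgb1 and Cd44 held none of the 6 motifs. Of the 32851 promoters in the table, 7.27% held the kB letters in a window of the same length, 6.75% the AP-1 letters, 15.9% the KLF letters, 3.17% the FOXO letters, 4.87% the EGR letters and 12.4% the TATA letters. A match is a description of the sequence and not a binding site.

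Of the genes of the LFA-1 chains, Itgal fell by a small margin and Itgb2 did not pass the test. Itgal had signals of 579, 504, 536 and 575 in anti-IgD with vehicle, against 644, 674, 614 and 836 in PBS with vehicle. The groups did not overlap, but the nearest arrays were close. The log2 difference of -0.32 ± 0.12 passed the test at an adjusted p of 0.035, and the call was lost in 9 of 31 other settings, in which adjusted p reached 0.16 at most. These included the fits without replicate 2 or 4 of either vehicle group. Itgb2 had signals of 1048, 956, 967 and 1013 in anti-IgD with vehicle and of 853, 848, 933 and 1002 in PBS with vehicle. These groups overlapped, and the log2 difference was 0.13 ± 0.09 (adjusted p = 0.24). The gene was called higher in 4 of 31 other settings: it had 0.22 without the 6 arrays of high control signal (adjusted p = 0.021), 0.21 with control signal as a covariate, 0.24 with arrays shifted to one median and 0.20 with the replicate number as a block (adjusted p = 0.047).

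Of the genes of the counter-receptors of LFA-1, Icam1 rose and Icam2 fell in RNA. Icam1, a ligand gene induced by inflammatory signals in many cell types, had signals of 444, 503, 492 and 497 in anti-IgD with vehicle, against 314, 308, 268 and 364 in PBS with vehicle. All stimulated arrays lay above all PBS arrays, and the log2 difference was 0.61 ± 0.09 (limma, adjusted p = 3.7e-06). Icam2, a ligand carried constitutively by lymphocytes and endothelium, had signals of 503, 471, 512 and 511 in anti-IgD with vehicle, against 692, 634, 951 and 648 in PBS with vehicle. Its log2 difference was -0.52 ± 0.11 (adjusted p = 6.9e-04), with replicate 3 of the PBS arrays well above the other three.

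Pecam1 encodes an adhesion receptor with inhibitory motifs in its cytoplasmic tail, carried by endothelium, platelets and leukocytes. Its signals were 62.9, 90.0, 77.0 and 76.2 in anti-IgD with vehicle, against 188, 161, 236 and 343 in PBS with vehicle. The highest stimulated array was well below the lowest PBS array, and the log2 difference was -1.38 ± 0.17 (limma, adjusted p = 8.2e-07). Cd44, the hyaluronan receptor and a marker of activated lymphocytes, had signals of 535, 581, 519 and 507 in anti-IgD with vehicle and of 576, 550, 658 and 511 in PBS with vehicle. These groups overlapped, and the log2 difference was -0.09 ± 0.09 (adjusted p = 0.42).

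Markers of other cell types that carry these molecules were read beside the changes. Of 7 endothelial markers, 3 passed the filter, and the summed signal of all 7 was 50.6 to 79.6 in anti-IgD with PF-303, 49.2 to 64.8 in anti-IgD with vehicle, 46.1 to 139 in PBS with PF-303 and 37.3 to 79.6 in PBS with vehicle. Cdh5 stayed between 0.81 and 23.7 and Kdr between 2.59 and 36.6, and Egfl7 was called higher for PF-303 after anti-IgD (0.40 ± 0.15). Of 6 platelet markers on the array, 5 passed the filter, and the sum of all 6 was 164 to 248 in anti-IgD with PF-303, 124 to 353 in anti-IgD with vehicle, 158 to 244 in PBS with PF-303 and 160 to 256 in PBS with vehicle. All 9 macrophage and monocyte markers passed, with sums of 1764 to 3387 in anti-IgD with PF-303, 1018 to 3403 in anti-IgD with vehicle, 1395 to 2558 in PBS with PF-303 and 1643 to 2384 in PBS with vehicle. Of 7 neutrophil markers on the array, 6 passed. The sum of all 7 was 179.5 to 905 in anti-IgD with PF-303 and 206 to 593 in anti-IgD with vehicle. It was 100 to 318 in PBS with PF-303 and 160 to 603 in PBS with vehicle. Of 5 NK cell markers on the array, 3 passed. The sum of all 5 was 99.6 to 182 in anti-IgD with PF-303 and 62.8 to 134 in anti-IgD with vehicle. It was 90.35 to 172 in PBS with PF-303 and 81.6 to 121 in PBS with vehicle. These ranges overlapped between all 4 groups. Most of the macrophage sum was Lyz2, and Cd14 was called higher with anti-IgD, by 1.57 ± 0.49 with PF-303 and by 1.52 ± 0.55 with vehicle (limma, adjusted p = 0.017 and 0.027). In mice given PF-303, anti-IgD also raised the neutrophil marker S100a8 (1.07 ± 0.395, adjusted p = 0.041) and the NK cell marker Prf1 (0.37 ± 0.13, adjusted p = 0.025). All 6 marginal zone B cell markers passed the filter, and with vehicle anti-IgD lowered 5 of them, such as Cd1d1 (-1.39 ± 0.21) and Plxnd1 (-0.93 ± 0.14), and raised S1pr3. Of all genes tested, 30.6% were called lower and 17.4% higher. The sum of all 6 markers was 3859 to 4962 in anti-IgD with PF-303, 2875 to 3533 in anti-IgD with vehicle, 2881 to 3589 in PBS with PF-303 and 2848 to 3894 in PBS with vehicle. Most of this sum was Dtx1 and S1pr3. The 8 measured markers of mature B cells had a sum of 19010 to 22540 in anti-IgD with vehicle, below the 25430 to 38860 of anti-IgD with PF-303, the 25060 to 44980 of PBS with PF-303 and the 25360 to 48770 of PBS with vehicle. The part of these marker changes in the values of the adhesion genes was not tested.

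The response to anti-IgD differed between PF-303 and vehicle for 2 of the 9 genes: it was opposite in sign for Icam1 and smaller for Itgb7. For this difference 1 of the 9 genes was called higher and 1 lower, against 6.66% and 3.12% of all genes. In anti-IgD-treated mice, PF-303 raised 5 of the 9 genes (Itgb7, Pecam1, Itga4, Icam2 and Itgal) and lowered 2 (Icam1 and Cd44) relative to vehicle. Over all genes tested, 19.8% were called higher and 10.4% lower. The median log2 difference of the 9 genes was that of Itgal, 0.36, against 0.08 over all genes. The groups did not overlap for 7 of the 9, as for 26.8% of all genes. The counts of 5 and 2 were the same without the 6 arrays of high control signal. Over all 11104 genes, 2338 were then called higher and 1204 lower. This comparison shares the arrays of anti-IgD with vehicle with the one above, so opposite signs in both are in part the same arrays read again.

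**Figure D2:**
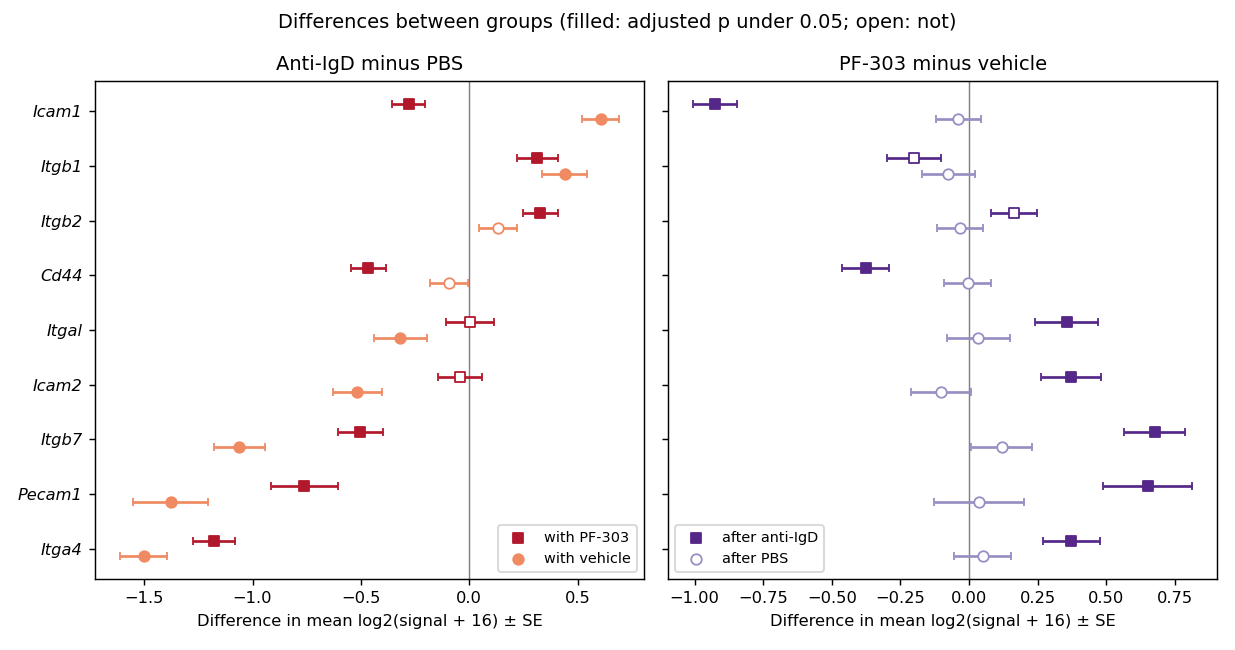
Log2 differences ± SE of the 9 genes, for anti-IgD minus PBS with PF-303 or vehicle (left) and for PF-303 minus vehicle after anti-IgD or PBS (right). Filled symbols passed an adjusted p of 0.05. Icam1 lies at 0.61 with vehicle and at -0.28 with PF-303, and all 9 genes lie near 0 for PF-303 after PBS.

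Icam1 had signals of 262, 229, 258, 261 and 229 in anti-IgD with PF-303, against 444, 503, 492 and 497 in anti-IgD with vehicle. The groups were widely apart, with a log2 difference of -0.92 ± 0.08 (limma, adjusted p = 3.3e-08). In PBS with PF-303 the signals of Icam1 were 310, 272, 308, 317 and 311. All 5 arrays of anti-IgD with PF-303 lay below these, with a log2 difference of -0.28 ± 0.08 (adjusted p = 0.0065), so anti-IgD lowered Icam1 in mice given the inhibitor and raised it in mice given vehicle. The difference between both responses was -0.89 ± 0.11 (interaction, adjusted p = 5.3e-05).

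Itgb7 had signals of 189, 219, 205, 270 and 224 in anti-IgD with PF-303, against 130, 119, 150 and 128 in anti-IgD with vehicle. Every array of the inhibitor group was higher, by a log2 difference of 0.68 ± 0.11 (adjusted p = 6.7e-05). In PBS with PF-303 the signals were 359, 297, 363, 268 and 313, and the response to anti-IgD with PF-303 was -0.50 ± 0.10 (limma, adjusted p = 6.2e-04), against -1.06 with vehicle. These 2 groups overlapped narrowly: the highest array of anti-IgD with PF-303, at 270, lay above the lowest of PBS with PF-303, at 268. The difference between both responses was 0.56 ± 0.16 (interaction, adjusted p = 0.026). It was 0.46 without the 6 arrays of high control signal, where it missed the test, as it did when replicate 2 or 5 was dropped from anti-IgD with vehicle, or replicate 3 or 4 from PBS with vehicle. Adjusted p was at most 0.078 in those fits.

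Itga4 stayed low under the inhibitor. Its signals were 420, 310, 328, 437 and 356 in anti-IgD with PF-303, above each array of anti-IgD with vehicle, with a log2 difference of 0.37 ± 0.10 (adjusted p = 0.0089). In PBS with PF-303 the signals were 908, 883, 815, 737 and 931, far above every anti-IgD array. The response to anti-IgD with PF-303 was -1.18 ± 0.10 (limma, adjusted p = 3.6e-09), against -1.50 with vehicle. The difference between both responses was 0.32 ± 0.15, with a 95% interval of 0.02 to 0.63, and did not pass the test (interaction, adjusted p = 0.18). Without the 6 arrays of high control signal it was 0.19.

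Pecam1 had signals of 149, 112, 118, 151 and 118 in anti-IgD with PF-303, against 62.9, 90.0, 77.0 and 76.2 in anti-IgD with vehicle. The groups did not overlap, and the log2 difference was 0.65 ± 0.16 (adjusted p = 0.0041). In PBS with PF-303 the signals of Pecam1 were 226, 202, 318, 197 and 218. The response to anti-IgD with PF-303 was -0.76 ± 0.15 (limma, adjusted p = 5.1e-04), against -1.38 with vehicle, and the difference of 0.62 ± 0.23 missed the test (interaction, adjusted p = 0.097). Without the 6 arrays of high control signal that difference was 0.34 (adjusted p = 0.295), while it passed at 0.73 without replicate 3 of PBS with PF-303 and at 0.76 without replicate 2 of PBS with vehicle.

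Icam2 had signals of 630, 611, 640, 765 and 618.5 in anti-IgD with PF-303, each above the 471 to 512 of anti-IgD with vehicle, with a log2 difference of 0.37 ± 0.11 (adjusted p = 0.012). In PBS with PF-303 they were 677, 576, 744, 781 and 600.5, and overlapped with those of anti-IgD with PF-303. The response with PF-303 was -0.04 ± 0.10 (adjusted p = 0.79), against -0.52 with vehicle, and the difference of 0.47 ± 0.15 fell short of the test (interaction, adjusted p = 0.053). It passed in 8 of 30 other settings, among them the fit without the 6 arrays of high control signal (0.50, adjusted p = 0.036) and 4 fits that each left out 1 PBS array.

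Cd44 was lower in anti-IgD with PF-303 than in the groups it was tested against. Its signals were 367, 417, 451, 427 and 384 in anti-IgD with PF-303, below the 507 to 581 of anti-IgD with vehicle, the 521 to 658 of PBS with PF-303 and the 511 to 658 of PBS with vehicle. The log2 difference was -0.38 ± 0.09 against anti-IgD with vehicle (limma, adjusted p = 0.0017) and -0.47 ± 0.08 against PBS with PF-303 (adjusted p = 8.8e-05). The difference between the responses with PF-303 and with vehicle was -0.37 ± 0.12 (interaction, adjusted p = 0.053), short of the test. It passed in 7 of 30 other settings, including 3 fits that each left out 1 array, and with the replicate number as a block (-0.43, adjusted p = 0.017).

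Of the remaining integrin chains, Itgal had signals of 994, 613, 668, 685 and 626 in anti-IgD with PF-303, against 504 to 579 in anti-IgD with vehicle. All were higher, replicate 1 by far, and the log2 difference was 0.36 ± 0.12 (limma, adjusted p = 0.023). Without that replicate it was 0.23 and missed the test, as it did when replicate 2 or 4 was dropped from anti-IgD with vehicle, with control signal as a covariate (0.27) and with the mean of its probe sets (0.14, adjusted p = 0.27). Without the 6 arrays of high control signal it was 0.22 and passed. Itgb2 had signals of 1152, 1047, 1308, 1102 and 1005 in anti-IgD with PF-303, overlapping with anti-IgD with vehicle at 0.17 ± 0.08 (adjusted p = 0.15). Against the 874, 874, 1029, 858 and 815 of PBS with PF-303 it was higher by 0.33 ± 0.08 (adjusted p = 0.0024), with 1 PBS array inside the stimulated range. Itgb1 had signals of 102, 111, 87.3, 98.3 and 94.0 in anti-IgD with PF-303, which overlapped with the 104 to 124 of anti-IgD with vehicle (-0.20 ± 0.10, adjusted p = 0.13).

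In mice given PF-303, anti-IgD thus raised Itgb2 and Itgb1 and lowered Itga4, Pecam1, Itgb7, Cd44 and Icam1. That is 2 and 5 of the 9 genes, while 14.7% of all genes were called higher and 19.1% lower. The log2 difference of Itgb1 was 0.31 ± 0.09 (limma, adjusted p = 0.011), with signals of 71.8, 80.4, 75.7, 77.1 and 74.4 in PBS with PF-303. Itgal had a log2 difference of 0.003 ± 0.11 (adjusted p = 0.99), and of -0.15 without the 6 arrays of high control signal (adjusted p = 0.17). The median of the 9 genes was -0.28, against -0.05 over all genes, and the groups did not overlap for 5 genes, as for 24.8% of all genes. For the difference between both responses, 1 of the 9 genes was called higher (Itgb7) and 1 lower (Icam1), against 6.66% and 3.12% of all genes.

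In PBS-treated mice, none of the 9 genes passed the limma test for PF-303 against vehicle, and none had an unadjusted p under 0.05. The log2 differences lay between -0.10 (Icam2) and 0.12 (Itgb7), with adjusted p of 0.76 or more. The signals of both groups overlapped for all 9 genes. Over all genes tested, 0.072% were called higher and 0.675% lower. The 95% interval was -0.21 to 0.13 for Icam1, -0.17 to 0.27 for Itga4 and -0.30 to 0.38 for Pecam1, the widest of the 9. Without the 6 arrays of high control signal the differences were 0.31 for Itgb7, 0.29 for Pecam1 and 0.18 for Itga4, and none passed the test.

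Several genes were read by more than 1 probe set, and in a fit over all 24947 probe sets that passed the filter 40.2% were called for anti-IgD against PBS with vehicle, and 26% for PF-303 after anti-IgD. All 4 Itga4 probe sets that passed were called lower after anti-IgD, with log2 differences of -1.50, -1.52, -1.12 and -1.12. For PF-303 after anti-IgD they lay between 0.26 and 0.37, and 2 of the 4 passed. Itgb1 was read by 6 probe sets, of which 3 passed the filter. Of these, 2 were called higher after anti-IgD (0.44 and 0.47), and the third, with mean signals of 10.3 to 14.9 near the filter level of 15.2, had -0.079 (adjusted p = 0.73). The second Itgal probe set, with mean signals of 33.4 to 46.4, had -0.084 after anti-IgD (adjusted p = 0.72) and -0.080 for PF-303 after anti-IgD (adjusted p = 0.76), so the changes of Itgal rest on 1 probe set. For Cd44, 3 probe sets gave -0.38, -0.33 and -0.48 for PF-303 after anti-IgD, of which the last did not pass (adjusted p = 0.067).

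**Figure D3:**
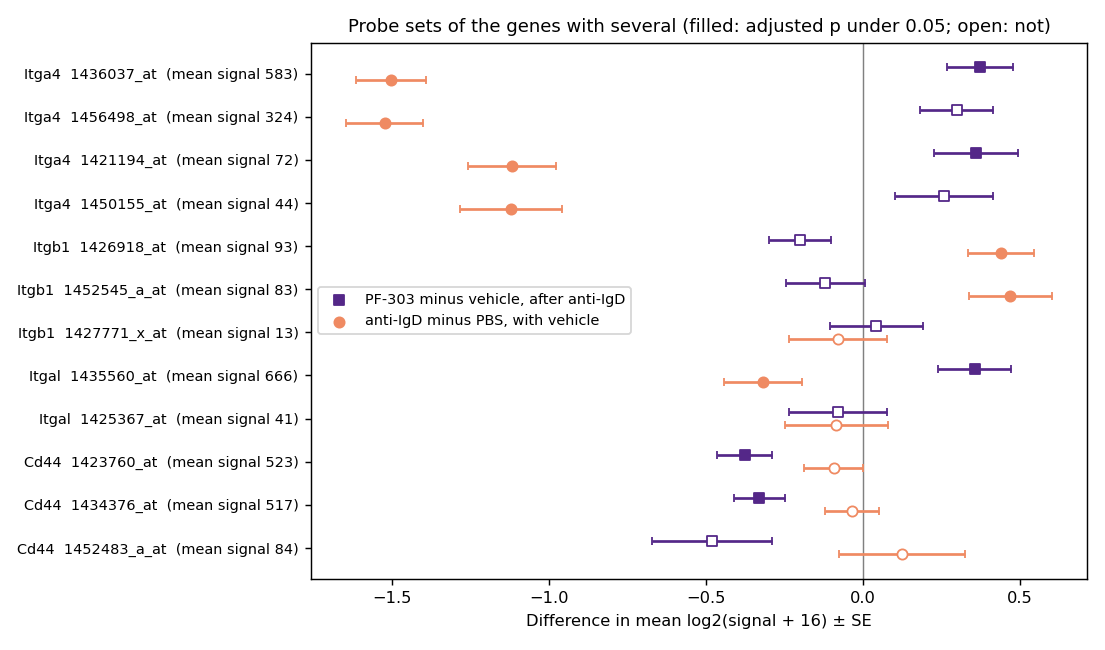
Log2 differences ± SE of each probe set that passed the filter, for the 4 genes with several, with its mean signal. Filled symbols passed an adjusted p of 0.05. The 4 probe sets of Itga4 lie between -1.52 and -1.12 for anti-IgD minus PBS.

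Genes that switch integrins on and link them to actin were read next. Of 27 measured genes of integrin activation by Rap1, talin and kindlin, 17 were called lower and 1 higher in vehicle-treated mice, where 30.6% of all genes were called lower and 17.4% higher, with a median log2 difference of -0.36 against -0.13 over all genes. Falls were found for Rasa3, which encodes a GTPase-activating protein for Ras and Rap (-1.81 ± 0.10), Rasgrp2, the exchange factor CalDAG-GEFI for Rap1 (-1.37 ± 0.10), and Sipa1, a GTPase-activating protein for Rap1 (-1.06 ± 0.13). The falls thus included both an activator and inhibitors of Rap1, while Rap1a itself rose by 0.27 ± 0.10. After anti-IgD, PF-303 raised 13 of the 27 and lowered 1 (19.8% and 10.4% of all genes), with Rasa3 at 0.85 ± 0.10 and Sipa1 at 0.81 ± 0.13, and 5 genes were called higher for the difference between both responses (6.66% of all genes). Of 26 measured genes of adhesion signalling and actin linkage, 13 were called lower and 2 higher with anti-IgD (30.6% and 17.4% of all genes), also with a median of -0.36. Parvg (-0.88 ± 0.11), which encodes an actin-binding partner of integrin-linked kinase, Arhgef6 (-0.77 ± 0.07), an exchange factor for Rac, and Rac1 itself (-0.75 ± 0.18) fell. Slc3a2 (0.87 ± 0.08), whose product CD98 binds integrin β chains and carries amino acid transporters, and Vcl (0.44 ± 0.14), which encodes vinculin, rose. PF-303 after anti-IgD raised 12 and lowered 2 of these 26 (19.8% and 10.4% of all genes), with Zyx, the focal adhesion protein zyxin, at 0.77 ± 0.17 and Slc3a2 at -0.75 ± 0.08.

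Of 19 other integrin subunits on the array, 11 passed the filter. Of these, 1 rose and 1 fell with anti-IgD in vehicle-treated mice, against 17.4% and 30.6% of all genes. Itgav, the αV chain, averaged 962 in anti-IgD with vehicle and 411 in PBS with vehicle, a log2 difference of 1.20 ± 0.11 (limma, adjusted p = 5.8e-09), a larger rise than that of any of the 9 genes. With PF-303 it averaged 742 after anti-IgD and 398 after PBS. PF-303 lowered Itgav by 0.37 ± 0.10 after anti-IgD and raised Itgb3, a partner of the αV chain, by 0.46 ± 0.16 (adjusted p = 0.031). Itgb5, another partner, fell with anti-IgD in vehicle-treated mice by 0.48 ± 0.19 (adjusted p = 0.041). Both partners had low signals, with group means of 39.8 to 61.3 for Itgb3 and 33.5 to 57.9 for Itgb5.

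Among 18 measured adhesion molecules of the immunoglobulin superfamily and related families, 7 were called lower and 3 higher with anti-IgD in vehicle-treated mice, shares near the 30.6% and 17.4% of all genes. Ceacam1 (-1.65 ± 0.12), Slamf6 (-1.28 ± 0.12) and Cd2 (-1.24 ± 0.09), which encode homophilic or heterophilic contact receptors of lymphocytes, fell. Alcam (0.77 ± 0.10), the ligand of CD6, Epcam (0.70 ± 0.16) and Cd84 (0.31 ± 0.12) rose. PF-303 after anti-IgD raised 8 and lowered 2 (19.8% and 10.4% of all genes), with Cd2 at 1.14 ± 0.08 and its ligand gene Cd48 at 0.97 ± 0.09, and 7 were called higher for the difference between both responses (6.66% of all genes). Alcam was the 1 gene of all these lists called for PF-303 in PBS-treated mice, with mean signals of 85.4 in PBS with PF-303 and 172 in PBS with vehicle (-0.88 ± 0.10, limma, adjusted p = 1.0e-05). Of 5 measured selectin and sialomucin genes, 3 fell and 0 rose (30.6% and 17.4% of all genes). These were Cd24a (-0.69 ± 0.14), the P-selectin ligand gene Selplg (-0.67 ± 0.11) and Spn (-0.55 ± 0.15), which encodes CD43. PF-303 after anti-IgD raised 1 of the 5 (19.8% of all genes), Cd24a, by 0.50 ± 0.13. Of 11 leukocyte tetraspanins, membrane proteins that organise integrins and co-receptors, 6 fell and 0 rose (30.6% and 17.4% of all genes), with Tspan32 at -1.43 ± 0.09, Cd151 at -1.02 ± 0.13 and Cd81 at -0.77 ± 0.07. PF-303 after anti-IgD raised 7 of the 11 (19.8% of all genes), with Tspan32 at 0.77 ± 0.08 and Cd151 at 0.69 ± 0.12.

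**Figure D4:**
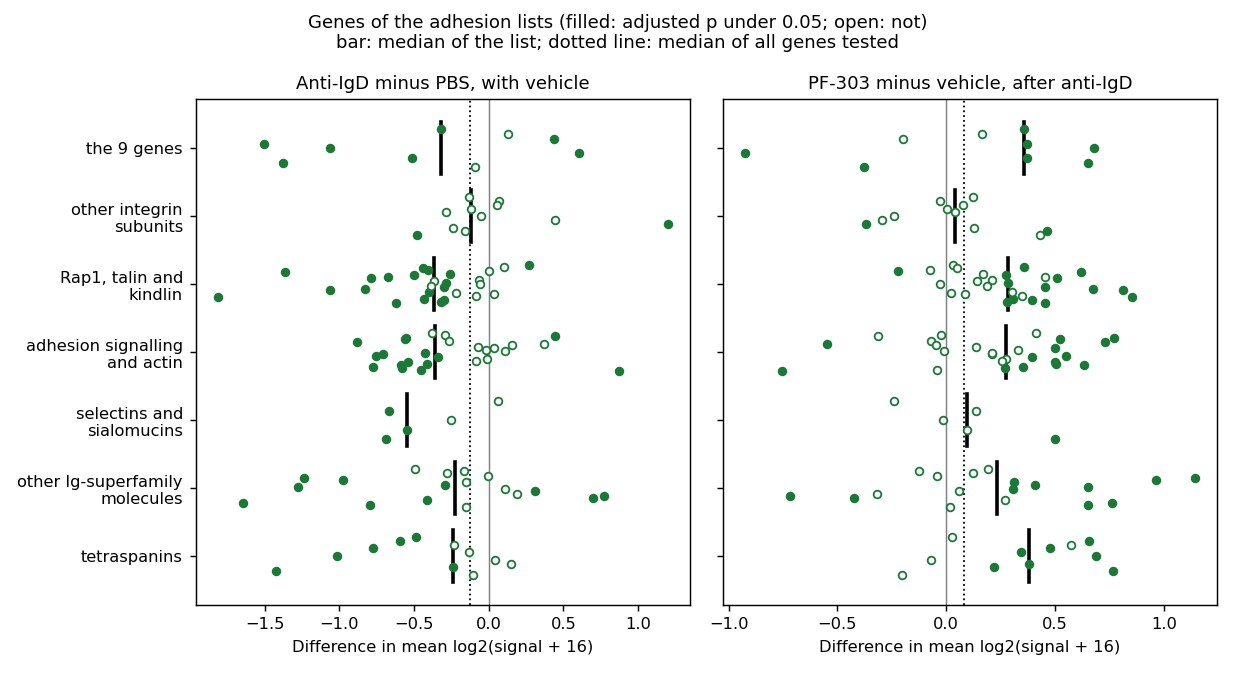
Log2 differences of the 9 genes and of each measured gene of the 6 adhesion lists, for anti-IgD minus PBS with vehicle (left) and PF-303 minus vehicle after anti-IgD (right). Bars are list medians, the dotted line is the median of all genes, and filled points passed an adjusted p of 0.05. The median of the Rap1, talin and kindlin list is -0.36 on the left and 0.28 on the right.

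By the pattern of its 4 group means of log2(signal + 16), each centred on its own mean, Icam1 was nearest to Bcl2l1, which encodes the survival protein BCL-XL, with a root mean square difference of 0.036. Zfp296 (0.038) and Taf15 (0.042) came next. The nearest genes to Itga4 were Dgka, a diacylglycerol kinase gene (0.045), Mbd4, a DNA glycosylase gene (0.052), and Nod1, a receptor gene for bacterial cell wall fragments (0.052). With 4 points per gene, such likeness is a description of these groups.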

How the data were processed

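RNA of CD23+ splenic B cells was hybridised to 18 arrays, with 150 ng of total RNA each. The deposited values are linear MAS5 signals, an intensity per probe set, which the authors made with MAS5 per the submitters' processing notes; its version is not given in the sources used here. The mean of each array after trimming 2% at each end was 99.96 to 99.97, so arrays had been scaled to 1 level, which removes differences in total RNA per cell. MAS5 subtracts mismatch signal, which makes low values noisy. No arrays held identical values. For arrays, their number limits the precision.

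The 64 control probe sets were left out, and probe sets were kept if 4 or more arrays exceeded 15.2, the median over every value. The probe set of the highest mean stood for a gene. Symbols came from the platform annotation, updated through RefSeq. Values were taken as log2(signal + 16), which understates changes of low signals. Group means over all 18 arrays were fitted in R 4.3.3 with limma 3.58.1 (eBayes with a mean-variance trend; statmod 1.5.0 for the random block), with two-sided tests adjusted by Benjamini-Hochberg within each of 5 contrasts. The procedure was tested on simulated data. The genes, lists and tests were chosen with earlier results of these data known. Named from each list were the called genes of largest rise and fall with anti-IgD in vehicle-treated mice (up to 3 each) and the 2 of largest change with PF-303 after anti-IgD, and, for the genes of largest rise and fall among the 9, the 3 of nearest pattern. Replicate numbers recur between groups: deviations of the 24 same-numbered pairs correlated from -0.16 to 0.22, and 3 of 18 arrays correlated best with their own number, so they were not treated as pairs.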

Additional observations from a re-analysis of the deposited data

Results flagged for a closer look

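For 2 of the 9 genes the response to anti-IgD differed between mice given PF-303 and mice given vehicle by the interaction term of the limma fit: Icam1 (-0.89 on the log2 scale, PF-303 response minus vehicle response) and Itgb7 (0.56). By the same term, 6.66% of all genes were called higher and 3.12% lower. In 5 of the 36 sets of 4 or 5 signals (9 genes in 4 groups), 1 array stood apart from its group by Dixon's criterion, which chance meets in about 1 of 20 sets. Replicate 1 of anti-IgD with PF-303 had an Itgal signal of 994, against 613 to 685 in the other 4 arrays. Replicate 4 of the same group had an Icam2 signal of 765, against 611 to 640. In PBS with PF-303, replicate 3 had an Itgb2 signal of 1029, against 815 to 874, and a Pecam1 signal of 318, against 197 to 226. Replicate 2 of that group had an Icam1 signal of 272, against 308 to 317. Replicate 1 of anti-IgD with PF-303 and replicate 3 of PBS with PF-303 are among the 6 arrays of high control signal, whose part in these values was not tested.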

How the results depend on the processing

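Across 31 settings (30 for differences between responses), single probe sets aside, the calls of Itga4, Itgb7, Pecam1, Icam1, Icam2 and Itgb1 for anti-IgD against PBS with vehicle, and of Icam1, Cd44, Itgb7, Pecam1, Itga4 and Icam2 for PF-303 after anti-IgD, kept their direction and side of the threshold, except that Itgb1 has no value with a mean signal above 100. That filter left 1 gene of the 9 called higher for anti-IgD with vehicle and 1 with PF-303. Of the 6379 genes it kept, 1593 and 1400 were called higher. For the difference between responses it gave 2 higher and 2 lower, against 768 and 389 of those 6379 genes. The mean of a gene's probe sets also gave 2 higher and 2 lower, against 791 and 482 of all 11104 genes. Quantile normalization gave 2 higher, against 689 of all genes. The shift to one median and the replicate block each gave 2 lower, against 411 and 327 of all genes. The main fit called 740 of all genes higher and 346 lower. Leaving out 1 array gave 0 to 3 higher and 1 to 2 lower, against 538 to 786 and 247 to 378 of all genes. Itgb7 lost its call in some of these fits, and Icam2, Pecam1 and Cd44 gained one in others. On weak further probe sets, Itgal had -0.080 for PF-303 after anti-IgD and Itgb1 had -0.079 for anti-IgD with vehicle. All genes called higher for PF-303 in PBS-treated mice (8) became 13 with an offset of 64, 18 with a mean signal above 100, 22 with arrays shifted to one median, 16 with quantile normalization, 15 with the mean of probe sets, 1 with only both groups compared, 20 with the replicate block, 29 with control signal as a covariate, 2 without the 6 arrays of high control signal and 0 to 16 without 1 array. Those called lower (75) became 44 with the shift, 27 with only both groups, 125 with the covariate, 44 without the 6 arrays and 42 to 92 without 1 array. All genes called lower for the difference between responses (346) became 211 without the 6 arrays. The causes were not tested. The labels do not say whether the numbers pair samples between groups. The replicate block changed 2 calls of the 9 genes, Cd44 for the difference between responses (-0.43) and Itgb2 for anti-IgD with vehicle (0.20), which both passed. The description of each sample holds a code with a letter, and the labels do not say what it stands for. As a random block, this letter had a correlation of -0.0035. Anti-IgD with vehicle held only the letters C, D and E, and PBS with vehicle only B, C, F and G. These groups shared letter C alone, so for the other letters the block cannot tell letter from group between them. Between single arrays sharing letter C, anti-IgD minus PBS was -1.48 for Itga4 and 0.66 for Icam1. Fitting only both groups compared gives no difference between responses.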
